A study of Mus musculus with 16 samples.

Results

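The nuclear genes for the subunits of mitochondrial oxidative phosphorylation were followed in 16 mouse liver libraries, with or without the histone chaperone HIRA in hepatocytes, before and after regeneration. Members were the rows of the gene table whose symbols begin with Nduf (families a, b, c, s and v), Uqcr, Cox4 to Cox8 or Atp5, together with Sdha, Sdhb, Sdhc and Sdhd. At least 10 counts over all libraries were required, and names marked as pseudogenes with "-ps" were left out. This gave 86 of the 55421 gene IDs in the table, all of them among the 23018 genes tested. They comprised 40 members for complex I, 4 for complex II, 8 for complex III, 17 for complex IV and 17 for complex V. The annotation called 82 of them protein coding and 4 processed pseudogenes (Ndufa11b, Ndufb4c, Ndufs6b and Cox6c2). A further 3 IDs matched the names but had too few counts (Cox7b2, Cox8c and a second ID named Atp5o). The naming rule does not take in Ndufab1.

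All mice were male C57BL/6 mice that received an adeno-associated virus (AAV8) at 6 months of age, with expression driven by the hepatocyte promoter Tbg. Control livers came from wildtype mice given either AAV8 Tbg-Cre or a virus carrying saCAS9 with a guide against the neutral Rosa26 locus, and HIRA KO livers from HIRA fl/fl mice given AAV8 Tbg-Cre or wildtype mice given saCAS9 with a guide against Hira. Part of the liver was resected 4 weeks after injection and served as the sample before regeneration, and the remaining liver was taken 5 days later as the sample after it, so that lobe, manner of collection and time cannot be told apart. Each of the 4 groups held 4 libraries, 2 from each way of deletion, but the table columns do not say which, and do not link a mouse's samples. Each column was therefore used as 1 replicate of its group and is called here by its running number.

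Oxidative phosphorylation passes electrons from NADH (complex I) and succinate (complex II) through complex III to complex IV, where oxygen is reduced, and the proton gradient built on the way drives ATP synthesis by complex V. All complexes but complex II are made of subunits from the nuclear and the mitochondrial genome. Hepatocytes are rich in mitochondria and spend much of this ATP on gluconeogenesis, ureagenesis and the synthesis of plasma proteins.

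Total counts per library ran from 15103059 to 21738619. Levels are given as CPM (counts scaled to a common library total, here with TMM factors), and log2 fold changes come from edgeR with their approximate standard error. A gene was called at a Benjamini-Hochberg adjusted p under 0.05 over all genes tested. Transcripts of the targeted gene, Hira (ENSMUSG00000022702.16, chromosome 16, 18877037 to 18970309), lay between 5.21 and 6.18 CPM in control and 3.13 and 4.38 CPM in HIRA KO before regeneration, and between 4.99 and 6.29 CPM and 3.04 and 4.56 CPM after it, with no overlap at either time. The hepatocyte marker list summed to between 113000 and 177500 CPM in every library. On the second principal component of all genes, the HIRA KO libraries numbered 1 and 2 stood apart at both times, at -47.4 and -36.6 before and -40.2 and -36.2 after, while all others lay between -1.14 and 31.2, so results that involve HIRA KO are also given without them. In these 4 libraries the B cell markers summed to between 14.6 and 83.6 CPM, against at most 8.39 CPM elsewhere, and the stellate cell and matrix markers to between 377.9 and 675.7 CPM, against 178.4 to 417.8 CPM elsewhere. The part of these other cells in the results below was not tested, and in bulk liver fewer cells of a type and less RNA per cell cannot be told apart. Nor can it be told from the columns whether the HIRA KO libraries numbered 1 and 2 share a way of deletion, of which each group holds 2 libraries each.

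The members together took 1.06% ± 0.0720 of all counts in control before regeneration (mean ± SD, n = 4), 1.01% ± 0.0307 in HIRA KO before, 0.883% ± 0.0731 in control after and 1.04% ± 0.0945 in HIRA KO after. Per length, in the deposited FPKM (fragments scaled to transcript length and library depth), the highest levels in control before regeneration belonged to Atp5b, the catalytic beta subunit of the ATP synthase, at 537 ± 45.3 FPKM, and Uqcrq, a small subunit of complex III, at 452 ± 44.4 FPKM. Ndufa4 (413 ± 37.3 FPKM), a small subunit now assigned to complex IV although named for complex I, and Cox6b1 (387 ± 38.4 FPKM), a subunit on the outer face of complex IV, came next. Uqcrq and Ndufa4, and Ndufa4 and Cox6b1, differed by less than 1 SD, and Atp5b stood further above. Cox4i1, the first nuclear subunit of complex IV to be assembled, had no FPKM in any library although it had 235, 275, 268 and 326 CPM in these same 4 libraries, and by CPM per kilobase of transcript it ranked 5 of 86. By that measure Atp5b and Uqcrq also ranked 1 and 2. Isoforms typical of muscle or testis were low, with 0.0363 FPKM for Cox6a2, 0.203 for Cox8b, 0.311 for Cox6b2 and 2.75 for Cox7a1 as group means in control before regeneration.

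**Figure D1:**
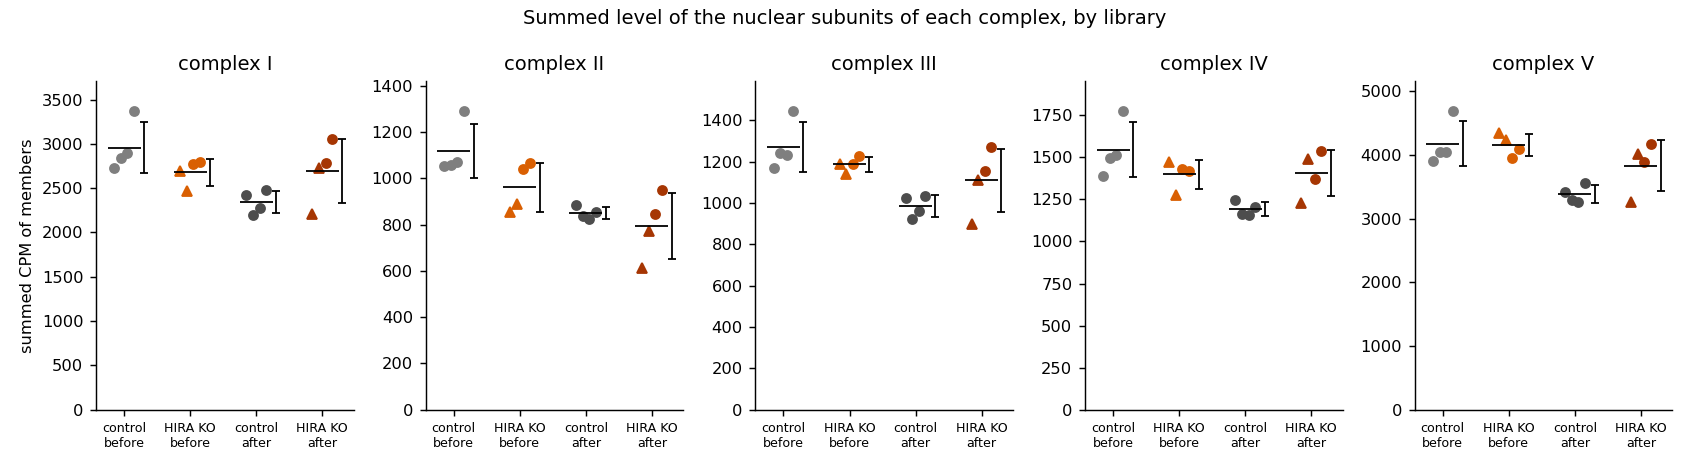
Summed CPM of the members of each complex (y axis, linear from 0) in each library, by group; horizontal lines are means, bars are SD (n = 4) and triangles are the HIRA KO libraries numbered 1 and 2. In control, each complex summed lower in all 4 libraries after regeneration than in all 4 before it.

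Regeneration in control liver was examined first. Transcripts of the subunits were lower after regeneration almost throughout: 83 of 86 members had a negative log2 fold change, with a median of -0.33 against 0.00 over all genes tested. By edgeR 23 members fell and 1 rose, where 4.17% of all genes were called lower and 6.04% higher. The 5510 genes with a mean of at least 20 CPM had a median of -0.06, and 531 of them were called lower and 340 higher. For 55 members all 4 libraries after regeneration lay below all 4 before it, which held for 8.98% of all genes tested, and for 1 member all lay above, which held for 10.0%. The medians of the complexes were alike, -0.33 for complex I, -0.39 for complex II, -0.40 for complex III, -0.29 for complex IV and -0.32 for complex V. Summed over members, complex I went from 2960 ± 285 to 2340 ± 126 CPM, complex II from 1120 ± 116 to 849 ± 26.7 CPM, complex III from 1270 ± 121 to 985 ± 53.6 CPM, complex IV from 1540 ± 164 to 1190 ± 40.5 CPM and complex V from 4170 ± 351 to 3380 ± 140 CPM. For each of the 5 complexes the summed levels in control did not overlap between times, as the plot of summed levels shows. Kupffer cell and macrophage markers summed to between 104.3 and 296.1 CPM in control before and 611 and 769 CPM after, and their part in the change was not tested.

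Of the 40 complex I members 11 fell in control. Ndufb9 (ENSMUSG00000022354.4, chromosome 15, 58933756 to 58939488, GRCm38), an accessory subunit of the membrane arm, had 119, 128, 124 and 156 CPM before and 85.5, 75.1, 81.8 and 84.2 CPM after regeneration. Every library after regeneration was lower than every one before it, and the log2 fold change was -0.69 ± 0.127 (edgeR adjusted p 0.00263). Ndufa6, an accessory subunit of the LYR family in the peripheral arm, had 124, 125, 123 and 143 CPM before and 93.6, 76.9, 75.8 and 81.8 CPM after. This was a log2 fold change of -0.65 ± 0.120 (edgeR adjusted p 0.00252), again with no overlap. The membrane arm subunits Ndufb3 (-0.60 ± 0.117), Ndufb6 (-0.53 ± 0.115) and Ndufb7 (-0.43 ± 0.0990) fell as well, with edgeR adjusted p of 0.00358, 0.00685 and 0.0101. Among the 7 core subunits, which carry the flavin and the iron-sulfur clusters, Ndufv1 alone was called, from 145, 165, 147 and 177 CPM to 123, 111, 114 and 116 CPM (-0.45 ± 0.107, edgeR adjusted p 0.0119). The smallest negative changes among members with a mean of at least 1 CPM included that of another core subunit, Ndufs8, at -0.05 ± 0.133, with 53.9, 57.0, 61.3 and 71.5 CPM before and 59.2, 52.0, 58.9 and 65.5 CPM after.

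In complex II, Sdha (ENSMUSG00000021577.14, chromosome 13, 74322254 to 74350280), the flavoprotein that oxidises succinate and also serves the citric acid cycle, had 509, 513, 524 and 658 CPM before and 399, 405, 400 and 393 CPM after in control. Its log2 fold change was -0.46 ± 0.141 (edgeR adjusted p 0.0431), and all libraries after regeneration lay below those before. Without control library 4 before regeneration, which stood at 658 CPM, the number of members called in this comparison went from 24 to 11, with 7.02% of all genes called, and it was also 11 without control library 2 or 3 after regeneration, with 8.08% and 6.82% of all genes called. In complex III the hinge protein Uqcrh (-0.49 ± 0.108, edgeR adjusted p 0.00723) and Uqcrb (-0.41, edgeR adjusted p 0.0220) fell. In complex IV, 6 members fell, led by the small subunits Cox7b (-0.60 ± 0.135, edgeR adjusted p 0.00829) and Cox6c (-0.52 ± 0.115, edgeR adjusted p 0.00775). In complex V, 3 members fell: Atp5g3, a gene for the proton-carrying c ring, Atp5h, part of the peripheral stalk, and Atp5d, part of the central stalk. Of the 3 genes for the same c protein, Atp5g3 went from 238, 239, 252 and 318 CPM to 198, 199, 175 and 201 CPM (-0.44 ± 0.123, edgeR adjusted p 0.0291). Atp5g1 and Atp5g2 had -0.15 and -0.21, and neither was called.

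**Figure D2:**
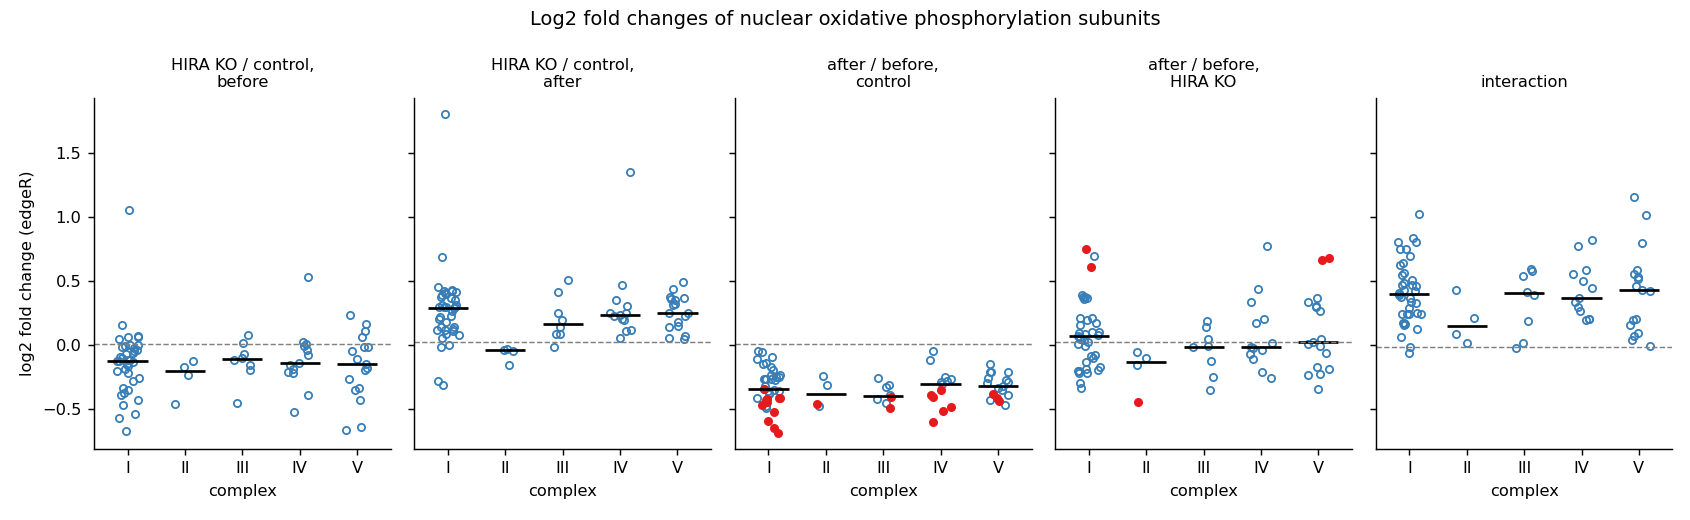
Log2 fold change of each member with a mean of at least 1 CPM (y axis) by complex (x axis) in the 5 comparisons, Cox6b2 left out for scale; filled red points were called by edgeR, thick lines are medians of the points shown and the dashed line is the median of all genes tested. The points of the control regeneration panel lie below the dashed line, and those of the interaction panel mostly above it.

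The one member that rose in control was Cox6b2 (ENSMUSG00000051811.14, chromosome 7, 4751792 to 4753094), the testis isoform of complex IV subunit 6b. It had 2, 2, 0 and 5 counts before regeneration and 18, 30, 89 and 58 counts after, which is 0.0995, 0.108, 0 and 0.296 CPM against 1.13, 1.72, 4.85 and 2.78 CPM. In HIRA KO it had 3, 2, 2 and 1 counts before and 22, 14, 76 and 37 counts after. In neither genotype did the times overlap. The log2 fold change was 4.34 ± 0.702 in control (edgeR adjusted p 0.00127) and 3.80 ± 0.720 in HIRA KO (edgeR adjusted p 0.00312), and the difference between the genotypes was not called (-0.53 ± 1.13, edgeR adjusted p 0.961). The common isoform, Cox6b1, stood some orders of magnitude higher, with 174, 171, 186 and 224 CPM before and 151, 156, 148 and 162 CPM after in control. Its change in control was -0.29 (edgeR adjusted p 0.148).

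**Figure D3:**
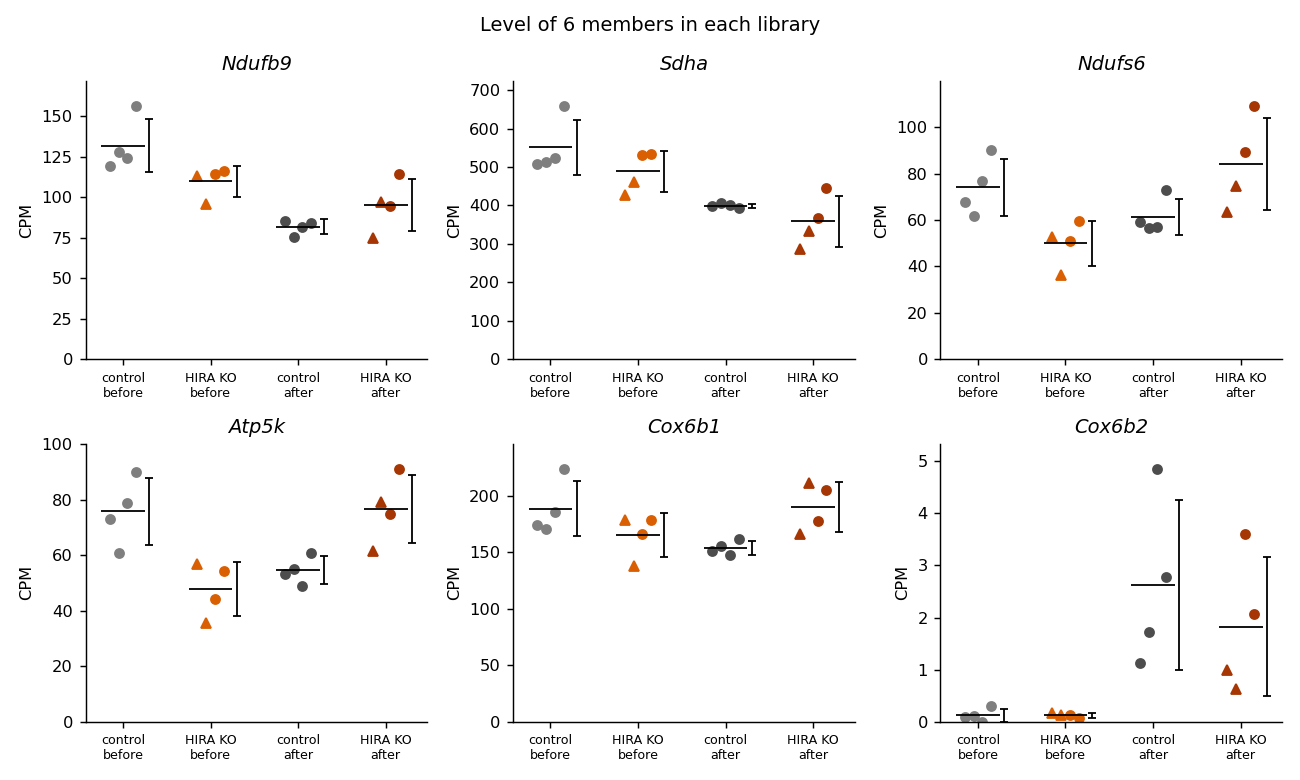
CPM (y axes, linear from 0) of 6 members in each library, by group, with means as lines, SD as bars (n = 4) and triangles for the HIRA KO libraries numbered 1 and 2. Ndufb9 and Sdha were lower in control after regeneration, Ndufs6 and Atp5k were higher in HIRA KO after than before, and Cox6b2 appeared after regeneration in both genotypes beside the far more abundant Cox6b1.

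Before regeneration, HIRA KO and control livers were then compared. Levels tended to be lower in HIRA KO, with 69 of 86 members negative and a median of -0.13 against 0.01 over all genes tested. Other protein-coding genes with short transcripts were as low or lower: those with at least 20 CPM had medians of -0.33, -0.22 and -0.13 for transcripts under 500, of 500 to under 700 and of 700 to under 1000 bases, against -0.21, -0.15 and -0.12 for members of these lengths. EdgeR called 0 members, where 0.0348% of all genes were called higher and 0.00434% lower, and 20 members had an unadjusted p under 0.05, as had 13.2% of all genes. The 5510 genes with a mean of at least 20 CPM had a median of -0.05, and 771 of them had such a p. DESeq2 called 3 members lower (Atp5k, Atp5l and Cox7b), where it called 0.970% of all genes lower. The whole HIRA KO group stood below the whole control group for 18 members and above it for 0, against 4.53% and 3.54% of all genes tested. The direction of the median depended on the measure, since log2(FPKM + 1) gave 0.04. Without the HIRA KO libraries numbered 1 and 2, 0 members were called by edgeR, with a median of -0.11 and 14 members at an unadjusted p under 0.05, against 6.24% of all genes in that fit. Without those numbered 3 and 4, 12 members were called lower and 1 higher, against 4.26% and 5.88% of all genes.

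Among members with a mean of at least 1 CPM, the lowest ratios before regeneration were those of Ndufa2, Atp5k and Atp5l. Atp5k (ENSMUSG00000050856.16, chromosome 5, 108433244 to 108434448), subunit e of the ATP synthase and needed for its dimers, had 73.1, 60.8, 78.8 and 90.1 CPM in control and 56.9, 35.5, 44.2 and 54.4 CPM in HIRA KO. The groups did not overlap, and the log2 fold change was -0.66 ± 0.156 (edgeR adjusted p 0.121, exact two-sided permutation p 0.0286, the smallest that 4 against 4 can give). Atp5l (ENSMUSG00000038717.8, chromosome 9, 44912557 to 44920742), subunit g, which lies next to subunit e, had 81.4, 64.8, 75.4 and 98.0 CPM in control and 51.8, 41.5, 51.6 and 59.9 CPM in HIRA KO (-0.64 ± 0.153, edgeR adjusted p 0.121). Ndufa2, an accessory subunit of the peripheral arm of complex I, had 47.5, 43.5, 51.2 and 62.6 CPM and 29.6, 24.0, 38.6 and 36.3 CPM (-0.67 ± 0.218, edgeR adjusted p 0.234). None of the 3 overlapped between groups. At the same minimum, and apart from the low isoforms Ndufa4l2 (1.05) and Cox7a1 (0.53), the highest ratio was that of Atp5d, 0.23 ± 0.114 (edgeR adjusted p 0.395), with 204, 212, 228 and 259 CPM in control and 285, 261, 257 and 257 CPM in HIRA KO.

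After regeneration the order was the other way. Of 86 members 76 were positive in HIRA KO relative to control, with a median of 0.24 against 0.02 over all genes tested. EdgeR called 0 members, while it called 0.200% of all genes higher and 0.291% lower, and 34 members had an unadjusted p under 0.05, as had 15.8% of all genes. The 5510 genes with a mean of at least 20 CPM had a median of -0.08, and 1469 of them had such a p. DESeq2 called 21 members higher and 0 lower, where it called 3.20% of all genes higher. All 4 HIRA KO libraries lay above all 4 control libraries for 20 members and below them for 0 members, against 3.65% and 4.45% of all genes. All 17 members of complex V were positive with a median of 0.25. The 4 members of complex II were negative with a median of -0.04, from -0.16 ± 0.140 for Sdha to -0.03 ± 0.113 for Sdhc. Without the HIRA KO libraries numbered 1 and 2, 86 of 86 members were positive, those of complex II among them, with a median of 0.33. In that fit edgeR again called 0, with 52 at an unadjusted p under 0.05, against 10.5% of all genes. Without those numbered 3 and 4, 60 were positive, and 5 were called higher and 2 lower, against 5.80% and 6.93% of all genes.

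By edgeR the members nearest to a call were the low isoform Cox7a1 and Ndufb7. Ndufb7, which reaches the intermembrane space side of complex I, had 40.9, 40.4, 36.8 and 40.9 CPM in control and 48.6, 60.7, 49.0 and 51.0 CPM in HIRA KO (0.40 ± 0.0989, edgeR adjusted p 0.0704). The groups did not overlap. Atp5d had 192, 164, 161 and 173 CPM in control and 232, 265, 204 and 231 CPM in HIRA KO (0.43 ± 0.114, edgeR adjusted p 0.0844), also without overlap. DESeq2 gave adjusted p of 0.000937 for Atp5d, 0.00139 for Uqcrh and 0.00187 for Ndufb7. Atp5k, which had been low in HIRA KO before, had 53.3, 55.0, 48.7 and 60.9 CPM in control and 61.3, 79.1, 74.9 and 91.0 CPM in HIRA KO (0.49 ± 0.156, edgeR adjusted p 0.135).

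Regeneration within HIRA KO liver was examined in the same way, and members went in both directions. The median log2 fold change was 0.03 against 0.02 over all genes tested, and 48 of 86 members were positive, with 17 higher and 8 lower at an unadjusted p under 0.05. Of the 23018 genes tested, 3280 were higher and 3038 lower at such a p. By edgeR 6 members rose and 1 fell, where 6.48% of all genes were called higher and 5.53% lower. The share of members that rose was thus close to that of all genes, and the share that fell was smaller. The 5510 genes with a mean of at least 20 CPM had a median of -0.10, and 352 of them were called higher and 738 lower. The times did not overlap for 7 members with higher and 4 with lower levels after regeneration, against 8.61% and 7.45% of all genes. The split shifted with the scaling: with library totals alone 15 rose and 0 fell, with the median of members at 0.15 and that of all genes at 0.14, and with 8.75% of all genes called higher and 3.01% lower. Without the libraries numbered 1 and 2, 7 members rose and 0 fell, against 5.37% and 4.20% of all genes. Without those numbered 3 and 4, 0 were called by edgeR, against 2.01% of all genes higher and 2.21% lower, with 23 members at an unadjusted p under 0.05, against 19.2% of all genes. DESeq2 called 11 higher and 5 lower, against 10.4% and 9.83% of all genes. Kupffer cell and macrophage markers were higher after regeneration in HIRA KO as in control, with sums between 147.2 and 180.6 CPM before and 552.2 and 891.4 CPM after.

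The members that rose in HIRA KO were Ndufs6, Ndufa12, Atp5k, Atp5l, Cox6b2 and Cox6a2. Ndufs6 (ENSMUSG00000021606.8, chromosome 13, 73319838 to 73328542), a zinc-binding subunit put on late in complex I assembly, had 52.5, 36.3, 50.9 and 59.7 CPM before and 63.4, 74.7, 89.2 and 109 CPM after. The times did not overlap (0.75 ± 0.174, edgeR adjusted p 0.00990). Ndufa12 (ENSMUSG00000020022.17, chromosome 10, 94198720 to 94221443), which joins complex I at the same late step, had 37.9, 26.0, 36.6 and 37.5 CPM before and 45.9, 56.3, 53.6 and 54.5 CPM after (0.61 ± 0.136, edgeR adjusted p 0.00823). Atp5k went from 56.9, 35.5, 44.2 and 54.4 CPM to 61.3, 79.1, 74.9 and 91.0 CPM (0.68 ± 0.156, edgeR adjusted p 0.00954), and Atp5l from 51.8, 41.5, 51.6 and 59.9 CPM to 61.7, 81.3, 83.6 and 97.6 CPM (0.66 ± 0.153, edgeR adjusted p 0.00968). Neither overlapped between times. These 4 were called in each of the 8 fits that left out 1 library. Sdha was the member that fell, from 428, 460, 531 and 535 CPM to 286, 334, 368 and 445 CPM (-0.45 ± 0.141, edgeR adjusted p 0.0461). Its groups overlapped, and it was called in 2 of the 8 fits without 1 library. Of the other large subunits, Atp5a1, the alpha subunit of the ATP synthase, had -0.35 ± 0.114 and Uqcrc2, a core protein of complex III, -0.36 ± 0.134, neither called by edgeR (adjusted p 0.0548 and 0.0916).

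Cox6a2, the heart and skeletal muscle isoform of complex IV subunit 6a, had 0 counts in each HIRA KO library before regeneration and 9, 1, 44 and 1 counts after it. The level after was at least 14.0-fold higher in CPM, taking 3 counts over the group before as the floor, and edgeR gave an adjusted p of 0.0350. With Cox6a2 at this bound the median of the members in HIRA KO stayed at 0.03. The call held in 3 of the 8 fits that left out 1 HIRA KO library. It was lost without library 3 after regeneration (edgeR adjusted p 0.0866) and without any 1 library before it (0.0637 to 0.0743). Markers of skeletal and heart muscle moved with it: their sum was 145 CPM in that library, 16.1 CPM in library 1, which held the 9 counts, and at most 1.54 CPM in the other 14. In library 3 Acta1, skeletal actin, stood at 47.9 CPM and Ckm, muscle creatine kinase, at 22.2 CPM, while Myh7 was at 0 throughout. Of the 10 muscle markers 9 had counts in any library, and their part in the call of Cox6a2 was not tested.

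The change of the HIRA KO effect with regeneration was tested as an interaction. It was positive for 79 of 86 members, with a median of 0.40 against -0.02 over all genes tested, and all 28 protein-coding accessory subunits of complex I, leaving out Ndufa4 and its relative Ndufa4l2, were positive. EdgeR called 0 members, and it called 0% of all genes higher and 0% lower, and 38 members had an unadjusted p under 0.05, as had 6.81% of all genes. The 5510 genes with a mean of at least 20 CPM had a median of -0.04, and 530 of them had such a p. DESeq2 called 9 members higher (Atp5k, Atp5l, Ndufb4, Cox7b, Atp5e, Ndufa13, Ndufa12, Uqcrh and Ndufs6) and 0 lower, where it called 0.304% of all genes higher. For 61 members HIRA KO was below control before and above it after regeneration. The share of all genes with this order is not given here. Other protein-coding genes with at least 20 CPM and transcripts under 500 bases had medians of -0.333 before and 0.158 after. Those with transcripts of 2500 bases or more had -0.025 and -0.147. Without the HIRA KO libraries numbered 1 and 2 the interaction was positive for 86 of 86 members (median 0.43), and without those numbered 3 and 4 for 69 (median 0.33).

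Among members with a mean of at least 1 CPM, the largest interactions were those of Atp5k (1.16 ± 0.221, edgeR adjusted p 0.229), Ndufs6 (1.02 ± 0.245, edgeR adjusted p 0.310) and Atp5l (1.01 ± 0.215, edgeR adjusted p 0.242). Their means after regeneration were lower in control and higher in HIRA KO than before it. In control, Ndufs6 had 67.6, 61.7, 76.6 and 90.1 CPM before and 59.1, 56.4, 56.9 and 72.9 CPM after, which overlapped. The lowest at that minimum belonged to Cox6b2 (above), Ndufs1 (-0.06 ± 0.142), the largest iron-sulfur subunit of complex I, and Uqcrc2 (-0.03 ± 0.189). Sdha (0.02 ± 0.198) and Atp5b (0.04 ± 0.178) were also near 0. The core subunits of complex I had a median of 0.17 and its accessory subunits one of 0.44. No test of this difference was made.

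Transcript length moved with these values. Over the 75 protein-coding members with a mean of at least 20 CPM, the Spearman correlation of the interaction with the length of the principal transcript was -0.60, and with coding length -0.67, given as a description over genes that share the same libraries. In HIRA KO regeneration it was -0.48 with transcript length and in control regeneration 0.31. The median interaction was 0.56 for the 10 members with transcripts under 500 bases, 0.43 for the 24 of 500 to under 700 bases, 0.37 for the 15 of 700 to under 1000 bases and 0.19 for both the 12 of 1000 to under 1500 and the 11 of 1500 to under 2500 bases. Other protein-coding genes with at least 20 CPM followed the same order, with medians of 0.48, 0.37, 0.25, 0.10 and 0.02 in these bins and -0.12 for the 3029 of 2500 bases or more. In control regeneration the bin medians of members were lower at every length, between -0.42 and -0.26 against medians between -0.15 and -0.05 for other genes. In HIRA KO regeneration the bin medians of members ran from 0.23 for transcripts under 500 bases to -0.30 for those of 2500 or more. Those of other genes ran from 0.33 to -0.16, and here too members were lower in every bin. At 500 to under 700 bases, for example, members had 0.045 and other genes 0.262. In HIRA KO against control after regeneration the bin medians ran from 0.35 to -0.03 for members and from 0.16 to -0.15 for other genes. The part of transcript length in the differences between HIRA KO and control was not tested.

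**Figure D4:**
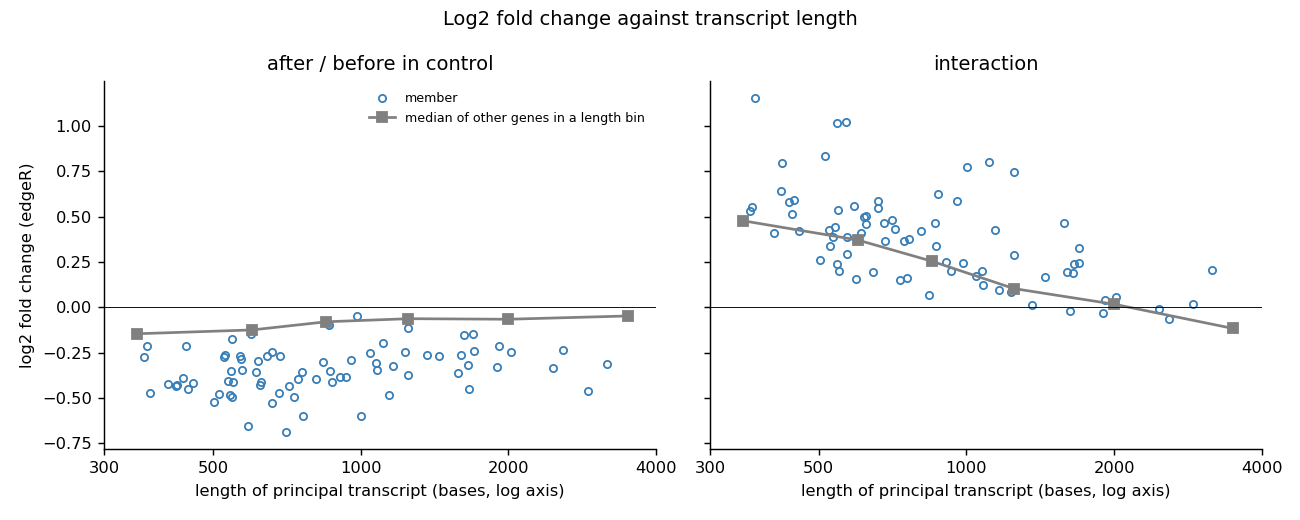
Log2 fold change (y axis) of the members with a mean of at least 20 CPM against the length of the principal transcript (x axis, log scale), for regeneration in control and for the interaction; grey squares are medians of other protein-coding genes in 6 length bins, drawn near the middle of each bin. In control the bin medians of the members, between -0.42 and -0.26, lie below the grey line at all lengths, though not every member does. In the interaction both members and other genes decline with length.

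Within the HIRA KO group some members followed the split between libraries 1 and 2 and libraries 3 and 4, which is described here without a test since the split was seen in these data. It cannot be told apart from the way of deletion and the mouse line that went with it, since the columns do not give these. Ndufb10, an accessory subunit of the complex I membrane arm, had 53.0 and 53.9 CPM in libraries 1 and 2 and 86.2 and 80.4 CPM in 3 and 4 before regeneration. After it the values were 29.1 and 42.2 CPM against 71.0 and 73.6 CPM, while control stood between 61.6 and 71.9 CPM. Sdhb, the iron-sulfur subunit of complex II, had 107 and 108 CPM against 135 and 146 CPM before and 76.8 and 105 CPM against 144 and 153 CPM after. Both were lower in the libraries that stood apart, at both times. Over all members, 50 of 86 were lower in libraries 1 and 2 before regeneration, with a median log2 ratio of -0.07, and 72 of 86 after it, with a median of -0.21.

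Ndufa4l2 and Cox7a1 had positive ratios in HIRA KO against control that edgeR did not call with all libraries. After regeneration DESeq2 called both (adjusted p 0.0132 and 0.00625), and edgeR called them in 2 and 1 of the 8 fits without 1 library. Ndufa4l2, a hypoxia-inducible relative of Ndufa4, had 3.39 and 3.20 CPM in libraries 1 and 2 and 1.43 and 1.5 CPM in 3 and 4 before regeneration, and 6.93 and 5.20 CPM against 1.42 and 1.84 CPM after. Control had between 0.436 and 1.74 CPM. Its log2 fold change in HIRA KO against control after regeneration, 1.80 ± 0.504 (edgeR adjusted p 0.103), was 0.56 without libraries 1 and 2 and 2.46 without 3 and 4. Its annotated exons share 32 bases with the opposite strand of Shmt2. Cox7a1, the contractile-tissue isoform of complex IV subunit 7a, had 1.38, 0.631, 0.981 and 0.912 CPM in control and 2.95, 2.84, 2.13 and 2.00 CPM in HIRA KO after regeneration. These did not overlap (1.35 ± 0.335, edgeR adjusted p 0.0704, exact two-sided permutation p 0.0286), and the value was 1.09 without libraries 1 and 2. At a mean of at least 1 CPM, the lowest ratios after regeneration were those of Cox6b2 (-0.53 ± 0.527), Ndufb10 (-0.31 ± 0.237) and Ndufa2 (-0.29 ± 0.218), and each turned positive without libraries 1 and 2 (0.11, 0.11 and 0.07). Among the highest, the processed pseudogene Ndufs6b had 0.69 ± 0.329, but its reads may come from Ndufs6, whose sequence it copies.

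**Figure D5:**
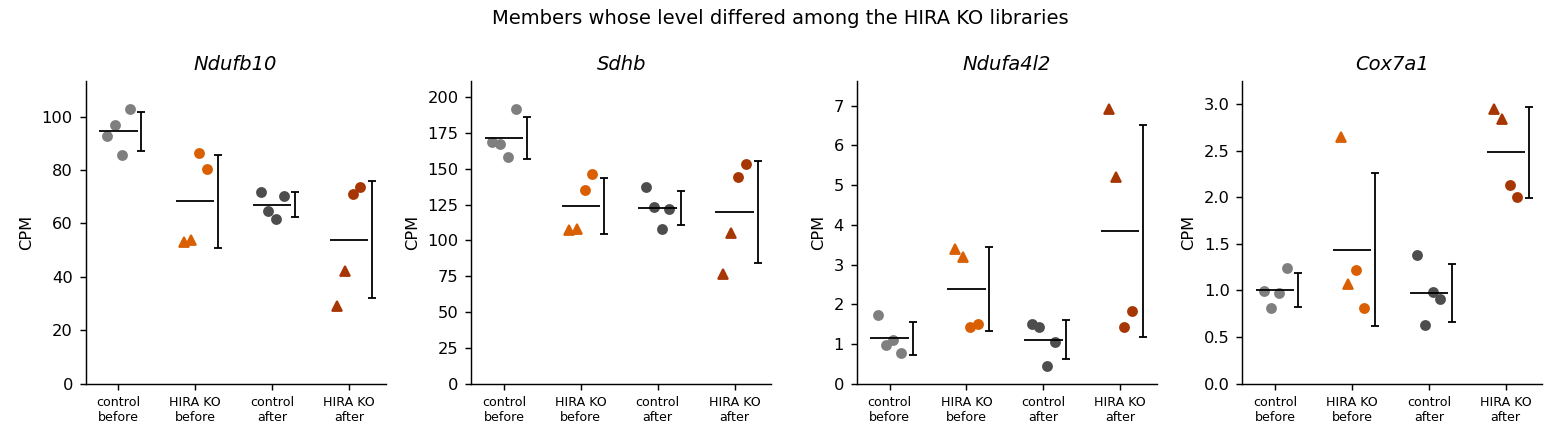
CPM (y axes, linear from 0) of Ndufb10, Sdhb, Ndufa4l2 and Cox7a1 in each library, by group, with means as lines and SD as bars (n = 4). Triangles, the HIRA KO libraries numbered 1 and 2, lie below the other HIRA KO libraries for Ndufb10 and Sdhb and above them for Ndufa4l2 at both times.

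Other genes of the pathway were counted for comparison. In control regeneration, 2 of 14 assembly factors of complex I fell (Ndufaf1 and Ndufaf4), as did 3 of 32 for complexes II to V (Surf1, Cox11 and Taco1), 2 of 13 citric acid cycle enzymes (Idh3b and Fh1), 1 of 8 electron and metabolite carriers (Slc25a13) and 1 of 13 mitochondrially encoded subunits (mt-Co1), while 0 of 12 outer membrane and import genes were called, also 0 at an unadjusted p under 0.05. Their medians were -0.26, -0.13, -0.16, -0.21, -0.56 and -0.01. Of all genes tested, 4.17% were called lower and 6.04% higher. Of 14 regulators 1 rose, Nrip1, a corepressor of oxidative genes (0.53 ± 0.143, edgeR adjusted p 0.0234). Ppargc1a, the coactivator best known for driving this gene set, had -0.61 ± 0.198 in control and -0.51 ± 0.198 in HIRA KO, neither called by edgeR (adjusted p 0.0581 and 0.106).

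In HIRA KO regeneration the assembly factors Ndufaf2 (0.51 ± 0.121, edgeR adjusted p 0.0117), which holds the place of Ndufa12 in an assembly intermediate of complex I, Uqcc2 (0.58 ± 0.139) and Pet100 (0.69 ± 0.129) rose and Coa5 fell (-0.35). The mitochondrially encoded subunits were split: 5 rose (mt-Nd3, mt-Co2, mt-Co3, mt-Atp6 and mt-Atp8, with log2 fold changes between 1.23 and 1.83) and 3 fell (mt-Nd2, mt-Nd5 and mt-Co1, between -0.83 and -0.52). In HIRA KO before regeneration these 5 stood at between 2.2 and 48.4 CPM, and these 3 at between 4720 and 30100 CPM. Among regulators Gabpa (-0.46 ± 0.111) and Tfb2m (-0.55 ± 0.116) fell, and Slc25a4, an adenine nucleotide carrier, rose (1.57) and Ogdh, of the citric acid cycle, fell (-0.36). The exons of Gabpa overlap those of Atp5j on the opposite strand. By edgeR 6.48% of all genes tested were called higher and 5.53% lower. Of the 16 calls in these lists, 9 held without the HIRA KO libraries numbered 1 and 2, and all 16 kept their sign. Among the mitochondrially encoded subunits, the 3 falls and the rise of mt-Nd3 held. The rises of mt-Co2, mt-Co3, mt-Atp6 and mt-Atp8 did not (edgeR adjusted p 0.0791, 0.066, 0.118 and 0.238). The medians of these lists in the interaction were 0.18 for complex I assembly factors, 0.21 for those of complexes II to V, 0.25 for mitochondrially encoded subunits, -0.15 for regulators, -0.01 for citric acid cycle enzymes, 0.13 for outer membrane and import genes and 0.10 for carriers, against 0.40 for the nuclear subunits. In HIRA KO against control, 0 genes of these lists were called by edgeR at either time. Before regeneration between 0 and 6 per list had an unadjusted p under 0.05, at most 6 of 13 mitochondrially encoded subunits, against 13.2% of all genes. After it between 1 and 9 per list had one, against 15.8% of all genes. These included 9 of 32 assembly factors of complexes II to V, 5 of 14 of complex I and 4 of 12 outer membrane and import genes. The other lists had at most 2.

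Promoters of the members were searched for known motifs. NRF1, GABPA (an ETS factor) and YY1 are known regulators of nuclear oxidative phosphorylation genes, and their core motifs were searched on both strands from 250 bases before to 50 bases after the RefSeq starts (GRCm38.p6), where 67 members had 72 promoters. TGCGCA (NRF1) stood in 26.4% of these and in 7.80% of all 32851 promoters, CCGGAAG (GABPA) in 23.6% and 8.90%, and AAGATGG (YY1) in 15.3% and 6.30%, and at least 1 of them in 52.8% and 20.4%. Among the 21 promoters of members that fell in control after regeneration, 61.9% held at least 1, against 49.0% of the 51 of other members. By motif the shares were 38.1% against 21.6% for NRF1, 23.8% against 23.5% for GABPA and, the other way, 9.52% against 17.6% for YY1. No test was made, and a match is not shown to be a binding site. The 150 bases upstream of 4 members are shown because they are the ones discussed above or carry more than 1 kind of match, with the NRF1 and GABPA cores in capitals, 5′ to 3′ on the strand of the gene, all from minus-strand genes. They are Ndufb6, which fell in control (chr4:40279422-40279571), Ndufs6, which rose in HIRA KO (chr13:73328543-73328692), Sdhd, the membrane anchor of complex II (chr9:50603850-50603999), and Cox6b2 (chr7:4753095-4753244), in which none of the 3 motifs was found.
Ndufb6: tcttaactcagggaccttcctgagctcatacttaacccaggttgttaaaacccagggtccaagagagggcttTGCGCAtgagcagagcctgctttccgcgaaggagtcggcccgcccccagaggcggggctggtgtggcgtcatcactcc
Ndufs6: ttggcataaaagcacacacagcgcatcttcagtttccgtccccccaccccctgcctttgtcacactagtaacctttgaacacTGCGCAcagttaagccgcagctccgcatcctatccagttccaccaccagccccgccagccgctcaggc
Sdhd: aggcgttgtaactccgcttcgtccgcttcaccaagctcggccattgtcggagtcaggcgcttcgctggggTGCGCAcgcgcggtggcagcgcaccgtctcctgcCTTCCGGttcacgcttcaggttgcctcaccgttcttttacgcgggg
Cox6b2: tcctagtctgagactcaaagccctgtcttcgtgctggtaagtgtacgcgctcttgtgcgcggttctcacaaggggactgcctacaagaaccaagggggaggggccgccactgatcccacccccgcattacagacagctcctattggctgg
In Sdhd the second capital run, CTTCCGG, is the GABPA core read on the other strand.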

How the data were processed

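Bulk poly-A RNA-seq of 16 liver libraries in 4 groups of 4 was analysed. The members and gene lists were chosen with earlier results of these data known. The deposited counts are whole-number read counts per gene, which the authors, per their methods, obtained with HOMER after alignment to mm10 with STAR. The submitters' processing notes name STAR, HTSeq and Cufflinks, so which tool made each table is unsure. The deposited FPKM were used for levels between members and in 1 alternative, with empty cells read as 0. The kit was directional, but whether counting used strand is not given in the sources used here, so that reads of overlapping genes on opposite strands may be shared.

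Genes with at least 10 counts over all libraries (23018) were fitted with edgeR (version 4.0.16, R version 4.3.3), TMM factors, 4 group means and the quasi-likelihood F test with robust estimation. P-values were adjusted by Benjamini-Hochberg across all of them, and genes were called under 0.05. A standard error is the size of the log2 fold change over the root of F. DESeq2 (version 1.42.0) and limma (version 3.58.1) on log2(FPKM + 1) were alternatives. The code of the fit was tried on simulated counts with the same spread for all genes and no split within groups. This does not show its accuracy on these libraries. Columns of the tables carry no approach, mouse or label replicate, and nothing says which libraries come from the same mouse. Within groups, pairs of libraries differed by a chi-square of between 13.7 and 152 per degree of freedom, so none was deposited more than once. P-values measure the spread between these libraries, and their totals set its counting part.

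Members were named if they belonged to a panel of 27 genes, were called (at most 10 in a comparison, by smallest p), or were among the 3 highest or 3 lowest log2 fold changes at a mean of at least 1 CPM. Genes beyond this rule, named after their values were seen, are Uqcrb, Atp5d and Atp5h in control regeneration, Ndufb7, Uqcrh, Atp5d and Atp5k in HIRA KO against control after it, Sdha and Atp5b in the interaction, Cox6b1, the members called by DESeq2 and the called genes of the pathway lists. Coordinates and transcript lengths are from GENCODE M21 on GRCm38 and promoters from RefSeq. The other settings were upper-quartile and RLE factors, library totals alone, no filter, filterByExpr, library sizes without mitochondrial genes, no robust estimation, only the groups compared, leaving out each library and, chosen after seeing the data, leaving out HIRA KO libraries 1 and 2 or 3 and 4.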

Additional observations from a re-analysis of the deposited data

Results flagged for a closer look

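In groups of 4 libraries, 1 library of a panel member lay far from the other 3 in 8 of the 100 groups examined; chance alone gives about 1 in 20. Sdha was at 658 CPM in control library 4 before regeneration, with the others between 509 and 524 CPM, and Sdhd was at 237 CPM in the same library, with the others between 193 and 200 CPM. That library also had the largest share of counts from the members. Sdhd was at 131 CPM in HIRA KO library 1 after regeneration, with the others between 180 and 183 CPM. In HIRA KO before regeneration, Ndufa4 was at 227 CPM in library 4 (others between 205 and 207 CPM) and Cox7a2l at 51.5 CPM in library 2 (others between 62.0 and 63.0 CPM). In control after regeneration, Atp5b was at 1080 CPM in library 4 (others between 977 and 988 CPM), and in library 3 Atp5a1 was at 743 CPM (others between 784 and 791 CPM) and Atp5g3 at 175 CPM (others between 198 and 201 CPM).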

How the results depend on the processing

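No paired analysis was possible because the columns carry a running number that is in no label and do not give the mouse or the replicate number; fits by deletion approach were not run for the same reason. DESeq2 called 3, 21, 46, 16 and 9 members in HIRA KO against control before and after regeneration, regeneration in control and in HIRA KO, and the interaction, where edgeR called 0, 0, 24, 7 and 0. With filterByExpr 4 were called in HIRA KO against control after regeneration and 13 in HIRA KO regeneration. Library totals alone gave 13 and 15 in regeneration in control and HIRA KO, log2(FPKM + 1) 9 in control regeneration, and only the groups compared 40 there. Without HIRA KO libraries 3 and 4 the counts were 13, 7 and 0 in HIRA KO against control before and after and in HIRA KO regeneration. By log2(FPKM + 1) the median of members was 0.038 before regeneration in HIRA KO against control, opposite in sign to -0.13, -0.19 in control regeneration and 0.21 in the interaction. The cause of these differences was not tested. Apart from the shares given above, the share of all genes called was not counted in these fits or in those without 1 library. Their counts of members can therefore not be set against all genes.

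Leaving out 1 library gave between 0 and 0 calls in HIRA KO against control before regeneration (medians from -0.17 to -0.08), 0 to 3 after it (0.18 to 0.32), 11 to 22 in control regeneration (-0.39 to -0.28), 5 to 11 in HIRA KO regeneration (-0.03 to 0.11) and 0 to 0 in the interaction (0.31 to 0.47). The calls of 3 arose without HIRA KO library 3 after regeneration, 2 without library 4, and 11 in HIRA KO regeneration without library 1 after it. Changes near 0 turned sign in some fits. In control regeneration Ndufs8 was 0.023 with library totals, 0.065 with FPKM and between -0.132 and 0.03 without 1 library, and Cox7a1 was 0.011, 0.123 and between -0.249 and 0.113. In the interaction Ndufs1 was 0.041 without HIRA KO libraries 1 and 2 and between -0.099 and 0.023 without 1 library, and Uqcrc2 was 0.021 with library totals, 0.027 with upper-quartile factors, 0.123 without HIRA KO libraries 1 and 2 and between -0.142 and 0.09 without 1 library. Without HIRA KO libraries 1 and 2 the interaction of Cox6b2 was 0.424, and HIRA KO against control after regeneration was 0.109 for Cox6b2, 0.108 for Ndufb10 and 0.065 for Ndufa2.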
